A study of Mus musculus with 9 samples.

Results

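Solute carriers are the transport proteins that move nutrients, ions, metals and metabolites across the membranes of a cell and of its organelles, and 99 of their genes are described here in mouse heart. They were selected on symbol and level, as the protein-coding genes with a solute carrier symbol and a mean of at least 1 FPKM over 9 libraries, out of 29237 genes in the deposited table. FPKM are fragments per kilobase of transcript, scaled to each library's mapped fragments, so levels can be compared between genes per length. The mitochondrial Slc25a carriers were left out, as were 10 carriers of glucose, lactate, fatty acids, calcium, iron, cystine and creatine. A further 178 carrier genes lay below the minimum. The members were thus chosen by their mean level over all libraries, so levels are a description. The rule did not use the group labels, but the mean includes the values of every group. The set was also chosen with earlier results of these data known.

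All hearts came from wild-type C57BL/6 mice of 8 to 12 weeks. The 3 libraries labelled TPTN are from a group given a treatment of that name, the 3 labelled DOX are from the doxorubicin model of dilated cardiomyopathy, and the 3 labelled Control are from a normal group. Doxorubicin is a cancer drug of the anthracycline class with known toxicity to heart muscle. The labels give no dose or day and do not expand the name TPTN, and whether those mice were also given doxorubicin is not stated there. Nothing in them says that each library is from a different mouse, so a p-value here measures the spread between these samples, which may be technical.

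Carriers use the sodium gradient, protons, exchange of one substrate for another, or simple facilitated passage to move their substrates. In heart muscle they set intracellular pH and chloride, take up taurine, glutamine, carnitine and phosphate, clear the nucleoside adenosine from outside the cell, and keep zinc, copper and magnesium within narrow limits. Others work in the Golgi, lysosome or endoplasmic reticulum, where they supply nucleotide sugars for glycosylation or return the products of breakdown.

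Estimated depth was 19.7 to 21.6 M read pairs in TPTN, 18.8 to 19.7 M in DOX and 23.2 to 24.8 M in Control libraries, and these figures are rough. Mitochondrial transcripts took 48.1 to 48.7% of the FPKM sum in TPTN, 44.7 to 46.2% in DOX and 49.8 to 50.9% in Control libraries, with no overlap between groups. Nuclear copies of mitochondrial genes, 7 in all, took a further 18.6 to 19.0% in TPTN, 18.0 to 18.3% in DOX and 19.2 to 19.7% in Control libraries. Summed over 5 heart muscle markers such as Myh6 and Tnnt2, the level was 8348 to 8531 FPKM in TPTN, 7811 to 8933 FPKM in DOX and 7200 to 7939 FPKM in Control libraries. The sum hides opposite changes in DOX against Control, where Tnni3 was higher (log2 change 0.28, limma adjusted p = 0.0412) and Ryr2 lower (-0.56, limma adjusted p = 0.0327). The rest of the 5 did not pass 0.05 there, and none of the 5 did in the other comparisons. Adipocyte markers were at most 0.483 FPKM in sum. DOX replicate 1 stood apart, with 2510 FPKM summed over 5 atrial markers, against 52.8 to 121 FPKM in TPTN, 196 and 289 FPKM in the other DOX libraries and 51.5 to 148 FPKM in Control libraries. Outside DOX replicate 1 these sums were almost wholly Nppa, at 288 and 195 FPKM in DOX replicates 2 and 3. Myl4, Myl7, Sln and Bmp10 were each at most 0.889 FPKM there, against 539 FPKM of Myl7 in DOX replicate 1. TPTN replicate 1 and Control replicate 3 had the most small RNA, 930 and 644 FPKM in sum, against 126 to 435 FPKM in the other 7 libraries. In bulk tissue, fewer cells of a type and less RNA per cell cannot be told apart.

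The 99 genes were mostly of low to moderate level. The mean was 10 FPKM or more in 17 genes, from 2 to under 10 FPKM in 49 and under 2 FPKM in 33, and the 10 most abundant held 36.7% of the summed FPKM. The first place belonged to Slc9a3r2, at 29.0 FPKM over the 9 libraries. It encodes NHERF2, a scaffold that anchors sodium-proton exchangers, and is 1 of 4 genes in the set that share a carrier's symbol without belonging to its family. The others are the scaffold gene Slc9a3r1, Slc4a1ap, and Slc7a6os, which lies opposite Slc7a6.

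**Figure D1:**
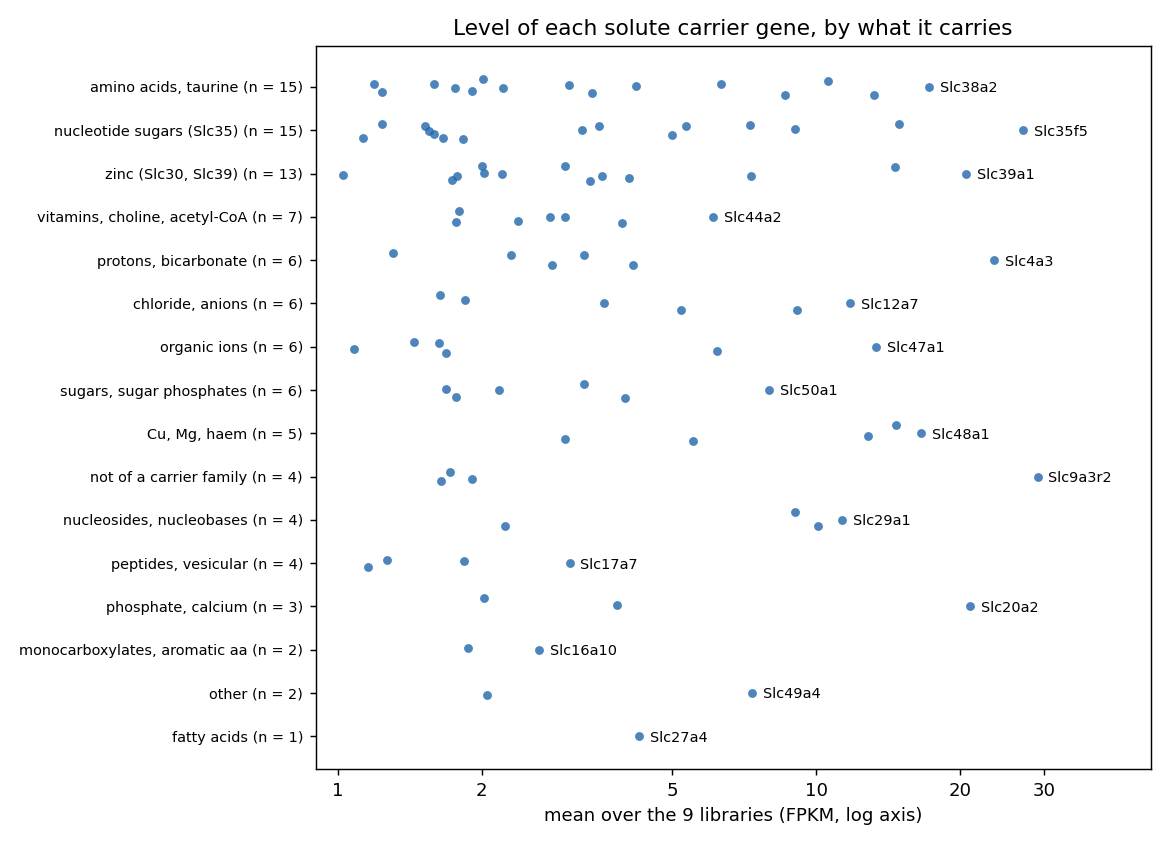
Mean FPKM of each of the 99 genes over the 9 libraries (horizontal log axis), in rows by the kind of substrate, with 1 point per gene and the most abundant gene of each row named. Only 17 points lie at 10 FPKM or above, led by Slc9a3r2 and Slc35f5.

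Among true carriers, Slc35f5, put in the nucleotide sugar class by its family name, led with 27.1 FPKM. It was followed by Slc4a3, the chloride-bicarbonate exchanger AE3 of heart muscle, at 23.5 FPKM and by Slc20a2, the sodium-phosphate cotransporter PiT2, at 21.0 FPKM. The zinc importer gene Slc39a1 stood at 20.6 FPKM, the glutamine and alanine carrier gene Slc38a2 at 17.2 FPKM and the haem carrier gene Slc48a1 at 16.6 FPKM. Slc47a1, which encodes the organic cation exporter MATE1, averaged 13.4 FPKM, and Slc12a7, a potassium-chloride cotransporter gene, 11.8 FPKM. The adenosine carrier gene Slc29a1 (ENT1) had 11.3 FPKM and the sugar carrier gene Slc50a1 7.98 FPKM. The remaining classes led with lower values: 6.08 FPKM for Slc44a2 (choline transporter-like), 3.05 FPKM for Slc17a7 (vesicular glutamate) and 2.64 FPKM for Slc16a10 (aromatic amino acids). Slc49a4 stood at 7.35 FPKM and Slc27a4 (fatty acids) at 4.27 FPKM.

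The minimum of 1 FPKM was a matter of small differences at its edge. Just inside it lay Slc39a6 with 1.02 FPKM and Slc22a3 with 1.08 FPKM on average, and just outside lay Slc45a3 with 0.984 FPKM and Slc10a6 with 0.973 FPKM. Slc10a6, which encodes a carrier of sulphated steroids, had 0.350, 0.303 and 0.401 FPKM in TPTN, 1.28, 1.47 and 0.899 FPKM in DOX and 1.0, 1.27 and 1.78 FPKM in Control libraries. Slc45a3 had 0.614, 0.432 and 0.786 FPKM in TPTN, 1.64, 1.09 and 0.988 FPKM in DOX and 1.07, 1.27 and 0.970 FPKM in Control libraries. Both were thus lowest in the 3 TPTN libraries, with no overlap. Of all genes of at least 0.5 FPKM on average, 14.1% were lower in TPTN than in DOX without overlap, and 6.03% lower than in Control. The low TPTN values are part of the mean that left these 2 genes outside the set. Of 29 transporter genes listed for their known role in heart, 26 were in the set. The other 3 were Slc7a5 (large neutral amino acids) at 0.958 FPKM, Slc5a3 (myo-inositol) at 0.386 FPKM and Slc2a3 (glucose) at 0.178 FPKM.

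Every member was tested with all other genes of at least 0.5 FPKM on average, 12500 in all, with limma on log2(FPKM + 1), and called where the Benjamini-Hochberg adjusted p was under 0.05. Levels hardly differed between the groups for most members. The highest group mean was within 1.5 times the lowest in 98 of 99 genes, with a median ratio of 1.15. Slc7a1, the exception, had a ratio of 1.66. Changes of all genes were of similar size. The median absolute log2 change in TPTN against DOX was 0.0937 over the members and 0.109 over all genes tested. It was 0.0969 and 0.0987 in DOX against Control, and 0.0680 and 0.0868 in TPTN against Control. Within a group the median coefficient of variation was 7.59% in TPTN, 9.34% in DOX and 8.22% in Control libraries. The summed level of the 99 genes was 524, 562 and 563 FPKM in TPTN, 575, 542 and 526 FPKM in DOX and 542, 515 and 531 FPKM in Control libraries, and these overlap.

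In TPTN against DOX hearts, 2 of 99 members were called, Slc38a3 higher and Slc43a3 lower in TPTN. That is 2.02% of members, against 3.26% of all genes tested. By direction, 0.792% of all genes were called higher and 2.46% lower. At an unadjusted p under 0.05 there were 18 members (18.2%), against 20.6% of all genes. The libraries of the groups did not overlap in 26 members (26.3%), 16 higher and 10 lower in TPTN, against 24.5% of all genes, 10.4% higher and 14.1% lower. The median log2 change was 0.03 over the members and -0.01 over all genes. When mitochondrial genes and copies of them were kept out of the scaling, 9 members were called, 8 higher and 1 lower, against 5.37% of all genes, 542 higher and 129 lower. That scaling brought the median to 0.12 over the members and 0.08 over all genes.

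In DOX against Control hearts, limma called 0 of 99 members, against 2.63% of all genes, 2.23% higher and 0.4% lower. At an unadjusted p under 0.05 there were 15 members (15.2%), 9 higher and 6 lower in DOX, against 18% of all genes. No overlap between libraries was seen in 17 members (17.2%), 11 higher and 6 lower in DOX, against 22.8% of all genes, 17.7% higher and 5.1% lower. The median log2 change was 0.02, against 0.04 over all genes. In TPTN against Control hearts, 1 member, Slc43a3, was called (1.01%), lower in TPTN, against 0.72% of all genes, 0.384% of them lower. Libraries did not overlap in 14 members, 11 higher and 3 lower in TPTN, against 21.3% of all genes, 15.2% higher and 6.03% lower. There 14 members had an unadjusted p under 0.05 (14.1%, against 13.1% of all genes), and the median log2 change was 0.05, against 0.04 over all genes. All 3 comparisons share libraries, each group serving in 2 of them, so they are not independent of each other. The share of members called was near or below that of all genes in each comparison. The 97 members not called in TPTN against DOX had log2 changes from -0.40 to 0.38.

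**Figure D2:**
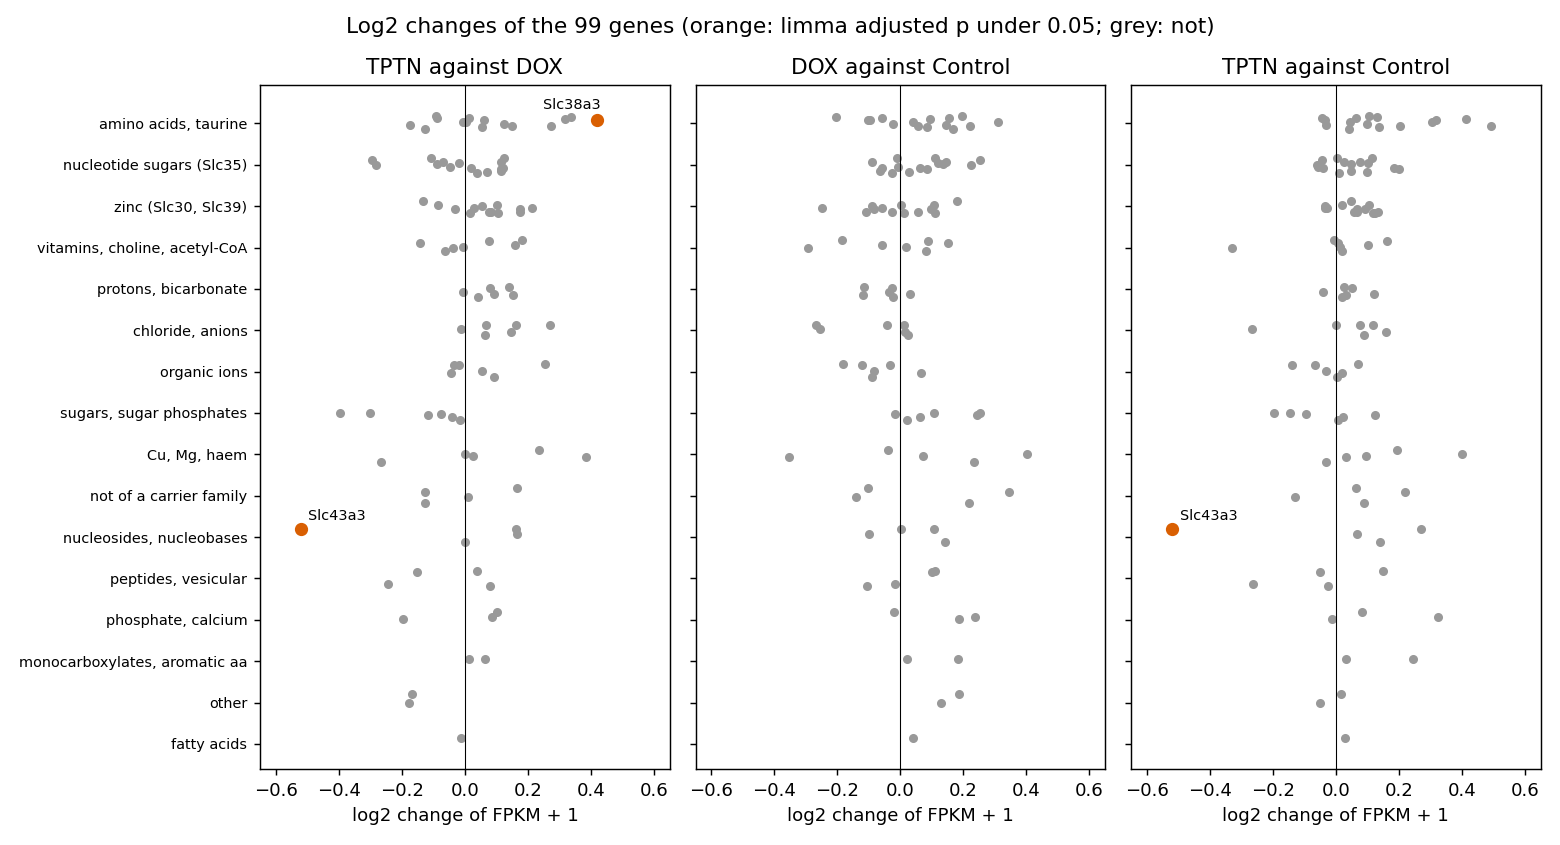
Log2 change of FPKM + 1 of each of the 99 genes (horizontal axis) in TPTN against DOX, DOX against Control and TPTN against Control, in rows by the kind of substrate, with positive values higher in the group named first. Orange points passed an adjusted p of 0.05 in limma (Slc38a3 and Slc43a3) and grey points did not, and 98 or more of 99 points per panel lie within 0.5.

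Among the members, Slc43a3 had the largest log2 change in TPTN against DOX and was called under the most settings. In human cells this gene encodes an equilibrative carrier of purine nucleobases, which feeds the salvage of adenine and related bases. Slc43a3 (ENSMUSG00000027074, GRCm38 chromosome 2, 84936579 to 84958509, plus strand) had 7.12, 7.77 and 7.97 FPKM in TPTN, 12.4, 11.4 and 10.4 FPKM in DOX and 12.0, 10.8 and 11.3 FPKM in Control libraries. All 3 TPTN libraries lay below all 6 others, and the DOX and Control libraries overlapped.

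Slc43a3 fell in TPTN, to 7.62 ± 0.440 FPKM, against 11.4 ± 1.0 FPKM in DOX (SD, n = 3 each). The log2 change was -0.52, with a standard error of 0.08 and an adjusted p of 0.0153 in limma. Against Control, at 11.3 ± 0.630 FPKM, the log2 change of TPTN was also -0.52 (limma adjusted p = 0.0165). Between DOX and Control it was 0.00, with a 95% interval of -0.17 to 0.17. Over 19 other settings the TPTN against DOX change of Slc43a3 ran from -0.58 to -0.40, and it was called in 16. Without TPTN replicate 1 the adjusted p was 0.0553, without that library and Control replicate 3 it was 0.0899, and with no filter on low values it was 0.115. Against Control the call held in 13 of 19 settings. There the adjusted p was 0.0694, 0.0683 and 0.0623 without TPTN replicate 1, 2 or 3, and 0.0657 without Control replicate 3. The 6 endothelial markers summed to 167 to 200 FPKM in TPTN, 164 to 190 FPKM in DOX and 175 to 181 FPKM in Control libraries, and 1 of the 6, Kdr, was called higher in TPTN in both comparisons. The part of endothelial cells in the values of Slc43a3 was not tested.

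The nucleoside carriers themselves are another family. Slc29a1 encodes ENT1, which carries adenosine in both directions, and had 10.8, 12.7 and 11.7 FPKM in TPTN, 12.5, 11.3 and 11.3 FPKM in DOX and 11.3, 9.83 and 10.5 FPKM in Control libraries. Its log2 change in TPTN against DOX had a 95% interval of -0.18 to 0.18. Slc28a2, the sodium-driven purine nucleoside carrier CNT2, had 8.26, 10.7 and 9.77 FPKM in TPTN, 7.73, 8.42 and 9.06 FPKM in DOX and 10.1, 7.80 and 9.36 FPKM in Control libraries. No comparison called either gene, and TPTN and DOX libraries overlapped in both. Slc29a2 encodes the other equilibrative nucleoside carrier, ENT2, and had 2.57, 2.84 and 2.28 FPKM in TPTN, 2.54, 1.87 and 2.16 FPKM in DOX and 2.08, 1.89 and 1.88 FPKM in Control libraries. TPTN lay above Control there, without a call.

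The 15 amino acid carriers held the 1 member that rose. Slc38a3 encodes SNAT3, which moves glutamine, histidine and asparagine with sodium in exchange for protons. Slc38a3 (ENSMUSG00000010064, GRCm38 chromosome 9, 107650634 to 107669530, minus strand) had 15.6, 15.5 and 15.9 FPKM in TPTN, 12.2, 10.6 and 11.7 FPKM in DOX and 14.3, 10.9 and 12.2 FPKM in Control libraries. The TPTN libraries lay close together and above all 6 others.

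Slc38a3 rose to 15.7 ± 0.206 FPKM in TPTN, against 11.5 ± 0.811 FPKM in DOX (SD, n = 3 each). The log2 change was 0.42, with a standard error of 0.09 and an adjusted p of 0.0355 in limma. Against Control, at 12.5 ± 1.70 FPKM, the log2 change of TPTN was 0.32 (limma adjusted p = 0.159), and that of DOX was -0.10 (limma adjusted p = 0.613). Slc38a3 was called in TPTN against DOX in 11 of 19 other settings, at log2 changes of 0.37 to 0.54. The adjusted p was 0.106, 0.0781 and 0.102 without TPTN replicate 1, 2 or 3, 0.115 and 0.0851 when DOX replicate 2 or 3 was left out, and 0.0588 without Control replicate 3. Without the 2 libraries richest in small RNA it was 0.157. Against Control, leaving out Control replicate 1 brought the adjusted p of Slc38a3 to 0.0470.

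Slc38a2 encodes SNAT2, a sodium-driven carrier of alanine, glutamine and other small neutral amino acids that is induced by amino acid shortage and by hypertonic stress. The 250 bases before its start (RefSeq, GRCm38.p6, chr15:96699729-96699978, minus strand) are shown as the promoter of the most abundant amino acid carrier gene. Capitals mark the antioxidant response core TGACNNNGC, found once.
Slc38a2: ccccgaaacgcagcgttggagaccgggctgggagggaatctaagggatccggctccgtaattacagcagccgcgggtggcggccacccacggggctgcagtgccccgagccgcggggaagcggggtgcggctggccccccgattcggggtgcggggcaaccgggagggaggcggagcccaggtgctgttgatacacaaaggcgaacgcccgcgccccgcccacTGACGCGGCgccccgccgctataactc
The gene had 21.6, 18.6 and 21.0 FPKM in TPTN, 17.5, 16.2 and 14.8 FPKM in DOX and 16.9, 13.0 and 15.5 FPKM in Control libraries. Every TPTN library was above every other library. Slc38a2 had a log2 change of 0.32 in TPTN against DOX (limma adjusted p = 0.112), and of 0.44 with a call when scaled without mitochondrial genes (limma adjusted p = 0.0403). Its log2 change was 0.41 in TPTN against Control (limma adjusted p = 0.106).

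Slc7a1 encodes CAT1, the importer of arginine, lysine and ornithine. It had 2.51, 2.56 and 2.57 FPKM in TPTN, 2.61, 1.69 and 1.61 FPKM in DOX and 1.46, 1.24 and 1.9 FPKM in Control libraries. DOX replicate 1 reached the TPTN level and the other DOX libraries lay within the Control range. In TPTN against Control its log2 change was 0.49 (SE 0.13, limma adjusted p = 0.128), the largest upward change of a member, and it passed only without DOX replicate 1, at an adjusted p of 0.0448.

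Slc6a6 encodes TauT, the taurine importer, and had 9.04, 11.2 and 8.75 FPKM in TPTN, 6.83, 7.38 and 8.00 FPKM in DOX and 8.11, 7.72 and 10.4 FPKM in Control libraries. TPTN lay above DOX without overlap, at a log2 change of 0.34 (limma adjusted p = 0.136), and it was called at 0.46 when scaled without mitochondrial genes (limma adjusted p = 0.0441). Slc3a2, the heavy chain that brings several amino acid exchangers to the cell surface, was the other way round. It had 5.77, 6.12 and 6.07 FPKM in TPTN, 7.27, 6.68 and 6.70 FPKM in DOX and 5.89, 6.22 and 6.30 FPKM in Control libraries, a log2 change of -0.17 in TPTN against DOX (limma adjusted p = 0.161). Slc1a5, the neutral amino acid exchanger ASCT2, differed by a log2 change of -0.09 in TPTN against DOX, with a 95% interval of -0.29 to 0.11.

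Summed over its 15 genes, the amino acid class had 83.9, 86.4 and 87.5 FPKM in TPTN, 82.6, 73.9 and 72.6 FPKM in DOX and 76.3, 68.0 and 76.0 FPKM in Control libraries. The sum was higher in every TPTN library than in any other, also under 2 other scalings of the libraries, by median ratios and without mitochondrial genes. Without Slc38a2, Slc38a3 and Slc6a6, left out after their values were seen, the other 12 genes summed to 37.6, 41.1 and 41.9 FPKM in TPTN, 46.1, 39.7 and 38.1 FPKM in DOX and 36.9, 36.4 and 38.0 FPKM in Control libraries, and TPTN and DOX overlapped. In TPTN against DOX 10 of the 15 log2 changes were positive, with a median of 0.05, against -0.01 over all genes, and 1 was called. Scaled without mitochondrial genes, 13 of 15 were positive, with a median of 0.15, against 0.08 over all genes.

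**Figure D3:**
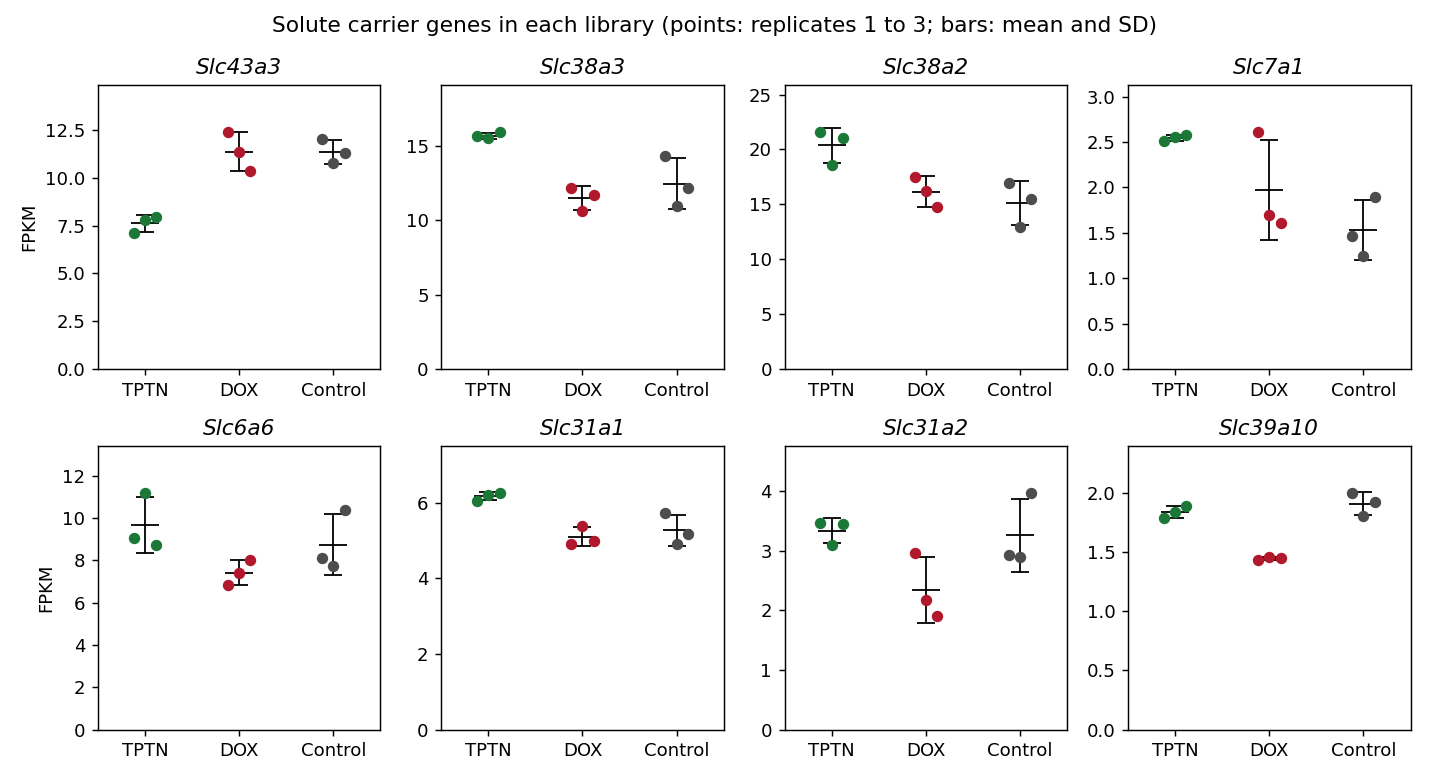
FPKM (vertical axis, from 0) of 8 members in each TPTN, DOX and Control library, with 1 point per library and the mean with its SD (n = 3). Slc43a3 is lowest in the 3 TPTN libraries and Slc38a3 and Slc38a2 are highest there, while Slc39a10 is lowest in the 3 DOX libraries.

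No gene of the 6 sugar carriers was called in any comparison. In TPTN against DOX all 6 log2 changes were negative, with a median of -0.10, against -0.01 over all genes. This count depends on the libraries and their scaling, since 2 of 6 were positive without DOX replicate 1 and 3 of 6 when scaled without mitochondrial genes, where the median of all genes was 0.08. Their summed level was 18.9, 19.8 and 19.0 FPKM in TPTN, 23.2, 22.5 and 23.1 FPKM in DOX and 19.5, 21.3 and 20.5 FPKM in Control libraries. DOX libraries thus held the highest sums. They stayed above all TPTN libraries when scaled by median ratios or without mitochondrial genes, while the Control libraries overlapped DOX under both.

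Slc50a1, the mammalian relative of the plant SWEET sugar carriers, had 7.34, 7.47 and 6.16 FPKM in TPTN, 8.73, 8.98 and 8.74 FPKM in DOX and 7.72, 8.82 and 7.86 FPKM in Control libraries. Its log2 change in TPTN against DOX was -0.30 (limma adjusted p = 0.0719). Slc2a8 encodes GLUT8, an intracellular glucose carrier, and had 2.21, 3.15 and 2.89 FPKM in TPTN, 4.21, 3.21 and 4.40 FPKM in DOX and 3.10, 3.28 and 2.99 FPKM in Control libraries. Both lay lower in TPTN than in DOX without overlap, Slc2a8 at a log2 change of -0.40 (limma adjusted p = 0.0878). Slc37a4 carries glucose 6-phosphate into the endoplasmic reticulum, and its log2 change in DOX against Control was 0.24 (limma adjusted p = 0.177). Slc2a12, the glucose carrier GLUT12, averaged 1.59 ± 0.313 FPKM in TPTN, 1.72 ± 0.173 FPKM in DOX and 1.75 ± 0.104 FPKM in Control libraries (SD, n = 3 each).

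The 15 Slc35 genes, put in the nucleotide sugar class by family name and not by the known substrate of each, had 0 calls in the 3 comparisons. Their sum was 83.7, 88.8 and 85.4 FPKM in TPTN, 87.2, 89.0 and 86.2 FPKM in DOX and 88.6, 80.4 and 83.8 FPKM in Control libraries, all overlapping. Slc35b2 carries the sulphate donor PAPS into the Golgi. It had 4.51, 4.93 and 5.05 FPKM in TPTN, 5.40, 6.80 and 6.34 FPKM in DOX and 4.54, 5.41 and 5.09 FPKM in Control libraries. TPTN lay below DOX without overlap (log2 change -0.30, limma adjusted p = 0.0996), and Slc35b2 passed without DOX replicate 1, at an adjusted p of 0.0450. Slc35c2 had a log2 change of -0.28 in TPTN against DOX (limma adjusted p = 0.128).

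Zinc carriers make up 13 members, with Slc39 genes importing zinc into the cytosol and Slc30 genes exporting it or loading it into organelles. None was called. In TPTN against DOX 10 of 13 log2 changes were positive, with a median of 0.08, against -0.01 over all genes. The sums were 63.1, 72.0 and 71.3 FPKM in TPTN, 69.1, 71.6 and 63.4 FPKM in DOX and 66.6, 63.2 and 65.3 FPKM in Control libraries, and the groups overlapped. Slc39a10, the importer ZIP10, had 1.78, 1.84 and 1.89 FPKM in TPTN, 1.43, 1.46 and 1.45 FPKM in DOX and 2.00, 1.80 and 1.93 FPKM in Control libraries. DOX libraries were the lowest and nearly equal.

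Slc39a10 had a log2 change of -0.25 in DOX against Control (limma adjusted p = 0.0727) and of 0.21 in TPTN against DOX (limma adjusted p = 0.0985). It passed in DOX against Control when scaled by median ratios, at a log2 change of -0.29, and without mitochondrial genes, at -0.35. Slc30a9, which serves zinc export from mitochondria, had 7.75, 8.15 and 7.63 FPKM in TPTN, 6.86, 7.03 and 6.62 FPKM in DOX and 7.42, 7.07 and 7.41 FPKM in Control libraries, a log2 change of 0.17 in TPTN against DOX (limma adjusted p = 0.144). Scaled without mitochondrial genes, Slc39a10 (limma adjusted p = 0.0341) and Slc30a9 (limma adjusted p = 0.0319) were called higher in TPTN against DOX, each at a log2 change of 0.29. Slc39a14, an importer of zinc and iron, had a log2 change of 0.17 in that comparison as deposited (limma adjusted p = 0.261), and Slc39a7, which releases zinc from the endoplasmic reticulum, of 0.01.

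Slc30a1 encodes ZnT1, the zinc exporter of the plasma membrane, a known target of the metal-sensing factor MTF1. Its 250 bases before the start (RefSeq, GRCm38.p6, chr1:191906531-191906780, plus strand) are shown because metal response elements of this promoter are textbook examples. Capitals mark, in order, an antioxidant response core and a metal response core TGCNCNC, both read on the other strand.
Slc30a1: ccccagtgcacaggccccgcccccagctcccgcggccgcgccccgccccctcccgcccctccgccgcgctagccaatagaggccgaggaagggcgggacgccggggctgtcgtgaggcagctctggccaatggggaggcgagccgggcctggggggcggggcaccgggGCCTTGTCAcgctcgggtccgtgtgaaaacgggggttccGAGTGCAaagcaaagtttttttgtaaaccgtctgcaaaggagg
Slc30a1 had 2.95, 3.11 and 2.91 FPKM in TPTN, 2.44, 3.26 and 2.87 FPKM in DOX and 3.29, 2.68 and 3.34 FPKM in Control libraries. All groups overlapped, and its log2 change in TPTN against DOX had a 95% interval of -0.15 to 0.26. The metallothionein gene Mt1, another MTF1 target and no member, had 38.3, 37.5 and 30.2 FPKM in TPTN, 56.3, 59.9 and 69.6 FPKM in DOX and 63.2, 92.0 and 54.3 FPKM in Control libraries. Its log2 change in TPTN against DOX was -0.79 (limma adjusted p = 0.0562).

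Copper, magnesium and haem carriers had 5 members and 0 calls. Slc31a1, the copper importer CTR1, had 6.05, 6.22 and 6.26 FPKM in TPTN, 4.92, 5.40 and 4.99 FPKM in DOX and 5.74, 4.92 and 5.17 FPKM in Control libraries. Its TPTN libraries lay above all others (log2 change 0.23 against DOX, limma adjusted p = 0.0982, and called at 0.35 when scaled without mitochondrial genes, limma adjusted p = 0.0244). Slc31a2, a relative of CTR1, had 3.47, 3.09 and 3.44 FPKM in TPTN, 2.97, 2.17 and 1.91 FPKM in DOX and 2.92, 2.90 and 3.97 FPKM in Control libraries. In TPTN against DOX its log2 change was 0.38 (limma adjusted p = 0.119), and without DOX replicate 1, which overlapped the Control range, it was 0.51 and passed.

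Slc41a1 encodes a magnesium carrier of the plasma membrane and had 11.4, 11.4 and 12.7 FPKM in TPTN, 17.1, 13.2 and 13.2 FPKM in DOX and 11.6, 12.6 and 12.2 FPKM in Control libraries. DOX lay above both other groups (log2 change of TPTN against DOX -0.26, limma adjusted p = 0.151). Slc41a3, of the same family, had 13.5, 16.3 and 18.3 FPKM in TPTN, 18.7, 14.9 and 14.5 FPKM in DOX and 12.6, 9.08 and 14.3 FPKM in Control libraries. Its log2 change of 0.40 in DOX against Control (limma adjusted p = 0.25) was the largest upward change of a member there. Slc48a1, which returns haem from lysosomes to the cytosol, varied little, with 17.1 ± 0.383 FPKM in TPTN, 16.8 ± 0.0934 FPKM in DOX and 15.9 ± 0.798 FPKM in Control libraries (SD, n = 3 each).

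**Figure D4:**
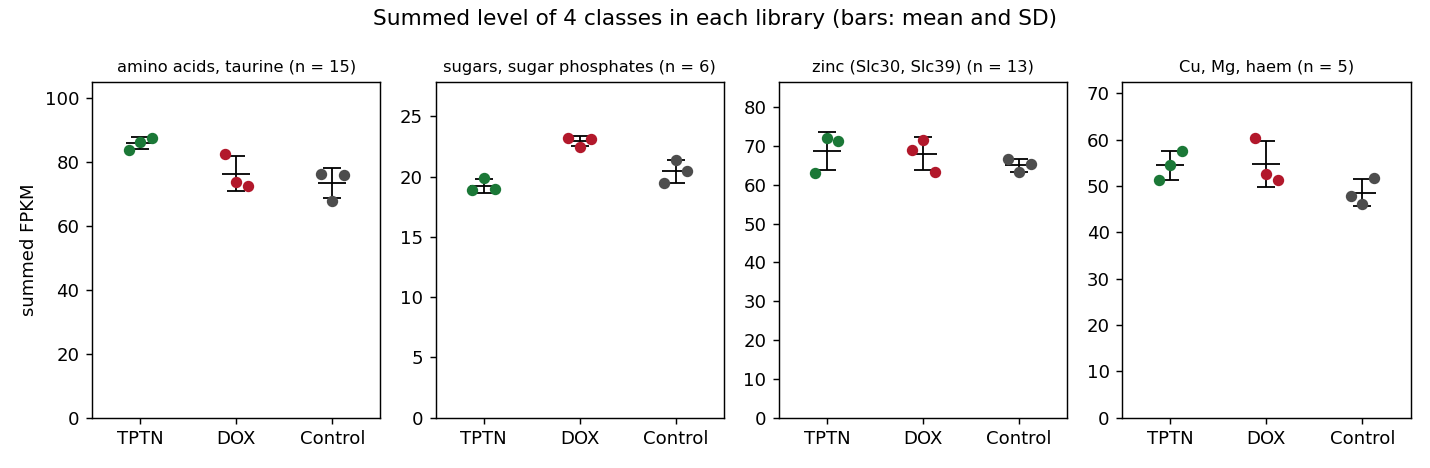
Summed FPKM (vertical axis, from 0) of the amino acid, sugar, zinc, and copper, magnesium and haem classes in each TPTN, DOX and Control library, with 1 point per library and the mean with its SD (n = 3). Amino acid sums are highest in TPTN, sugar sums are highest in DOX, and the other classes overlap between TPTN and DOX.

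The ion carriers of the heart muscle membrane showed 0 calls. Slc4a3 had 22.0, 23.3 and 24.5 FPKM in TPTN, 25.9, 21.4 and 22.8 FPKM in DOX and 23.3, 25.7 and 22.8 FPKM in Control libraries, with a 95% interval of -0.19 to 0.18 for the log2 change in TPTN against DOX. Of the 6 genes for protons or bicarbonate, 5 had a positive log2 change in TPTN against DOX, and the sums of 36.2, 37.7 and 39.4 FPKM in TPTN, 40.4, 34.5 and 34.8 FPKM in DOX and 37.1, 39.8 and 36.3 FPKM in Control libraries overlapped. Slc4a4, a sodium-bicarbonate cotransporter, averaged 1.34 ± 0.256 FPKM in TPTN, 1.28 ± 0.315 FPKM in DOX and 1.3 ± 0.0406 FPKM in Control libraries (SD, n = 3 each).

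Slc12a2 encodes NKCC1, which brings in sodium, potassium and chloride. It had 1.75, 2.25 and 2.05 FPKM in TPTN, 1.54, 1.58 and 1.37 FPKM in DOX and 2.37, 1.79 and 1.89 FPKM in Control libraries. DOX libraries were below both other groups without overlap, at a log2 change of 0.27 in TPTN against DOX (limma adjusted p = 0.137) and of -0.27 in DOX against Control (limma adjusted p = 0.163). Slc12a7, which exports potassium with chloride, had 12.9, 12.6 and 12.7 FPKM in TPTN, 10.7, 12.1 and 11.4 FPKM in DOX and 11.9, 10.8 and 11.1 FPKM in Control libraries (log2 change 0.15 in TPTN against DOX, limma adjusted p = 0.242). The 6 carriers of chloride and other anions summed to 33.2, 34.8 and 35.8 FPKM in TPTN, 31.7, 32.7 and 31.1 FPKM in DOX and 34.3, 32.8 and 32.5 FPKM in Control libraries. TPTN sums lay above DOX sums, also when scaled by median ratios or without mitochondrial genes, and under the scaling without mitochondrial genes Slc12a2 and Slc12a7 were called higher in TPTN.

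For phosphate, Slc20a2 had 19.5, 18.2 and 22.0 FPKM in TPTN, 25.6, 21.0 and 22.3 FPKM in DOX and 18.6, 21.7 and 19.8 FPKM in Control libraries, and Slc20a1 (PiT1) averaged 4.28 ± 0.230 FPKM in TPTN, 3.99 ± 0.508 FPKM in DOX and 3.26 ± 0.754 FPKM in Control libraries (SD, n = 3 each). Neither was called. Slc8b1, the sodium-calcium exchanger of mitochondria, averaged 2.15 ± 0.0266 FPKM in TPTN, 1.96 ± 0.525 FPKM in DOX and 1.97 ± 0.145 FPKM in Control libraries (SD, n = 3 each).

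Carriers of vitamins, choline and organic ions were also without a call. Slc22a5 encodes OCTN2, which supplies heart muscle with carnitine, and had 5.22, 6.13 and 6.44 FPKM in TPTN, 6.16, 5.95 and 5.90 FPKM in DOX and 5.86, 7.77 and 6.34 FPKM in Control libraries. Its log2 change in DOX against Control was -0.12, with a 95% interval of -0.34 to 0.10. Slc44a1, a choline carrier gene, averaged 3.88 ± 0.140 FPKM in TPTN, 4.11 ± 0.413 FPKM in DOX and 3.82 ± 0.135 FPKM in Control libraries (SD, n = 3 each). Slc19a2 (thiamine) averaged 1.95 ± 0.275 FPKM in TPTN, 1.79 ± 0.138 FPKM in DOX and 1.64 ± 0.371 FPKM in Control libraries. Slc33a1, which takes acetyl-CoA into the endoplasmic reticulum, averaged 3.23 ± 0.406 FPKM in TPTN, 2.79 ± 0.375 FPKM in DOX and 2.93 ± 0.269 FPKM in Control libraries.

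Slc46a3, a lysosomal carrier gene, had 2.38, 2.30 and 2.62 FPKM in TPTN, 2.55, 2.61 and 2.42 FPKM in DOX and 2.40, 4.17 and 3.58 FPKM in Control libraries. Control replicate 1 lay with the other groups, and without it Slc46a3 passed in DOX against Control, at a log2 change of -0.46, and in TPTN against Control, at -0.50. With all libraries the log2 change was -0.29 in DOX against Control (limma adjusted p = 0.264).

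DOX replicate 1, the library with atrial transcripts, was the highest of the 9 libraries in 30 of the 99 genes (30.3%), against 22.8% of all genes tested. In Slc17a7 it had 5.51 FPKM, against 2.21 and 2.46 FPKM in the other DOX libraries, 2.00 to 3.00 FPKM in TPTN and 2.67 to 3.66 FPKM in Control libraries. The part of atrial tissue in the members' values was not tested. DOX replicate 3 was the lowest library in 25 genes (25.3%), against 19.7% of all genes tested.

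Proteins that work with these carriers or regulate them were taken from a list of 24 genes, 20 of which were tested. Wnk1, the kinase that switches the Slc12 chloride carriers, rose in TPTN against DOX, with 15.9, 17.5 and 16.6 FPKM in TPTN, 11.6, 11.2 and 9.50 FPKM in DOX and 14.3, 11.7 and 13.3 FPKM in Control libraries (log2 change 0.59, limma adjusted p = 0.0160). Its adjusted p was 0.0506 without TPTN replicate 2 and 0.0579 without TPTN replicate 3. Car4, a carbonic anhydrase on the cell surface that supplies bicarbonate carriers, fell in TPTN, with 5.32, 5.07 and 5.67 FPKM in TPTN, 9.02, 9.18 and 10.9 FPKM in DOX and 10.1, 10.9 and 8.95 FPKM in Control libraries. Its log2 change was -0.75 against DOX (limma adjusted p = 0.00759) and -0.79 against Control (limma adjusted p = 0.00532). Car4 was called in 17 of 19 other settings in both comparisons. With no filter on low values the limma adjusted p was 0.0906 against DOX and 0.0909 against Control. Without Control replicate 3 and TPTN replicate 1 the limma adjusted p was 0.0520 and 0.0507. TPTN libraries were lowest in Car4, with no overlap.

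Car14, another surface carbonic anhydrase, had 32.9, 33.3 and 36.0 FPKM in TPTN, 41.7, 46.3 and 46.6 FPKM in DOX and 36.2, 37.4 and 35.8 FPKM in Control libraries. It fell in TPTN against DOX (log2 change -0.39, limma adjusted p = 0.0228), with an adjusted p of 0.0718, 0.0590 and 0.0542 without TPTN replicate 1, 2 or 3 and of 0.0645 and 0.0660 when DOX replicate 2 or 3 was left out. By quantile normalization its change was -0.25 (limma adjusted p = 0.0686). In DOX against Control it rose by 0.29 (limma adjusted p = 0.0477), called in 3 of 19 other settings, in none of the 3 other scalings and, of the fits with 1 library left out, only in that without DOX replicate 1. Fxyd1, the sodium pump regulator phospholemman, had 67.8, 67.9 and 65.6 FPKM in TPTN, 77.7, 78.5 and 81.2 FPKM in DOX and 68.8, 68.5 and 67.9 FPKM in Control libraries. It fell in TPTN against DOX (log2 change -0.24, limma adjusted p = 0.0425), called in 4 of 19 other settings, with an adjusted p of 0.0540 to 0.132 on leaving out any 1 library but DOX replicate 1. The change of Fxyd1 shrank to -0.07 by quantile normalization (limma adjusted p = 0.465) and -0.10 without mitochondrial genes (limma adjusted p = 0.219). Of the 20 partners tested, 1 was higher and 3 lower in TPTN against DOX, 1 was higher in DOX against Control and 1 was lower in TPTN against Control, where 3.26, 2.63 and 0.72% of all genes were called. The list was chosen with earlier results of these data known.

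The submitters also deposited their own test per gene, without naming the groups compared. Marked yes in the authors' deposited table are 17 of the 99 members, and 5 have a q-value under 0.05. Of the 12500 genes tested here, 21.4% are marked yes and 7.87% have such a q-value in the authors' deposited table. The 5 members with such a q-value in the authors' deposited table are Slc43a3 with a q-value of 3.12e-07, Slc7a1 with 0.00367, Slc38a3 with 0.00484, Slc38a2 with 0.0187 and Slc12a2 with 0.0336.

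RefSeq promoter windows of 300 bases, 250 before and 50 after the start, were at hand for 77 members, and 5 motifs were searched on both strands. Matches were counted motif by motif, so that matches of different motifs may share bases. The E-box CACGTG was in the windows of 13 members (16.9%), against 8.09% of 27025 genes. The metal response core was in 54 members (70.1%), against 53.6% of genes, and the antioxidant response core in 18 (23.4%), against 14% of genes. A gene counted if any of its windows matched, with 105 windows for the 77 members and 32851 for the 27025 genes. Those genes were not limited to coding genes or to genes expressed in heart. The members' windows also held more G and C, at a median of 62%, against 52.7% over all windows. The part of base composition, window number and choice of genes in these shares was not tested. The amino acid response core TGATGNAAT was in none of the members' windows, against 1.08% of genes, and the glucocorticoid response element in none, against 0.0111% of genes. A match or its lack describes the letters of these windows only.

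Of the 99 genes, 43 overlap another annotated gene, 20 of them on the same strand, and their values may include reads of the neighbour. Among those named, Slc6a6, Slc17a7, Slc20a2, Slc28a2, Slc31a2, Slc37a4, Slc39a7, Slc39a10 and Slc49a4 have such a neighbour on the same strand, while Slc43a3, Slc38a3, Slc38a2 and Slc7a1 overlap no other gene.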

How the data were processed

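Messenger RNA of mouse heart was sequenced in 9 paired, strand-marked libraries made with oligo(dT) selection and dUTP, per the labels' protocols. The submitters' processing notes list GRCm38, StringTie 1.3.4d, HISAT2 2.0.4 and cutadapt 1.9 beside DESeq2 and edgeR, with no role given. The authors deposited FPKM values per gene, with a p-value and a q-value whose groups the header does not name. FPKM scales by the library total, so a change in the abundant mitochondrial transcripts moves all other values the opposite way.

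Read counts were not used here. Low values were whole multiples of an estimated read's worth in only 15.3 to 18.7% of cases, within a tolerance of 0.05, so limma 3.58.1 (R 4.3.3) was fitted to log2(FPKM + 1) in 12500 genes with a mean of at least 0.5 FPKM. The scale understates changes of low genes. The fit held a mean per group, a trend and robust moderation, with 6 residual degrees of freedom, and p-values were two-sided and adjusted over all genes. The procedure was also tested on simulated data. A single gene in 3 against 3 libraries could not go below p = 0.1 in an exact permutation test.

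The members and gene lists were chosen with earlier results of these data known. Classes by substrate were written from family names, and 4 genes were moved to their own class after the data were seen. Named genes are the 29 listed heart transporters, called members, the most abundant member of each class, the members nearest the minimum and called partners. Slc2a8, Slc28a2, Slc29a2, Slc30a9, Slc31a2, Slc35b2, Slc35c2, Slc39a10, Slc41a3, Slc46a3 and Mt1 were chosen after their values were seen. A coding gene is one whose listed transcript types include protein coding. Positions are from GENCODE M21, in which all 99 members were found by identifier. Alternatives were 3 other scalings, other filters, pseudocount and fits, the replicate block and leaving out each library, 19 in all, of which 1 was added after seeing the data. Results on listed genes that are not named in the text are not reported here.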

Additional observations from a re-analysis of the deposited data

How the results depend on the processing

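FPKM without counts, 3 libraries a group and 6 residual degrees of freedom limit what could be called, and genes under 2 FPKM have their changes compressed by the pseudocount. In TPTN against DOX the count of 2 members called became 0 with no filter on low values, 9 when scaled without mitochondrial genes and their 7 nuclear copies (8 higher, 1 lower, against 5.37% of all genes), and 0 without Control replicate 3 and TPTN replicate 1, a setting chosen after seeing the data. Leaving out 1 library gave 0 to 4, the 0 without TPTN replicate 1 and the 4 without DOX replicate 1. It was 1 without Control replicate 3, either of DOX replicates 2 and 3 or either of TPTN replicates 2 and 3. The 9 were Slc12a2, Slc12a7, Slc30a9, Slc31a1, Slc38a2, Slc38a3, Slc39a10, Slc43a3 and Slc6a6. The members' median of 0.03 became 0.125 when scaled without mitochondrial genes, where that of all genes was 0.085, and -0.000129 to 0.0739 with 1 library left out, the highest without DOX replicate 1.

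In DOX against Control the count of 0 became 1 when scaled by median ratios and 1 without mitochondrial genes (Slc39a10 in both), and 0 to 1 with 1 library left out (Slc46a3 without Control replicate 1). The members' median of 0.02 became -0.0265 by median ratios, -0.0288 by quantile normalization and -0.0943 without mitochondrial genes, and -0.0113 to 0.0607 with 1 library left out. In TPTN against Control the count of 1 became 0 with no filter and 0 without Control replicate 3 and TPTN replicate 1, and 0 to 3 with 1 library left out. It was 0 without Control replicate 3 or any TPTN replicate, 2 without DOX replicate 1 and 3 without Control replicate 1. The members' median of 0.05 became 0.00723 by median ratios and 0.00179 by quantile normalization, and 0.0284 to 0.0734 with 1 library left out.

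Scaling without mitochondrial genes moved the median of all genes in DOX against Control from 0.04 to -0.07. Of all calls in TPTN against DOX, 24.3% were higher as deposited (99 of 407), 34.7% by median ratios, 51.5% by quantile normalization and 80.8% without mitochondrial genes. In DOX against Control these shares were 84.8, 63.6, 53.1 and 22.6%. Over all genes no filter left 2 calls lower in TPTN against DOX and 2 higher in DOX against Control. Slc3a2 in DOX against Control reversed to -0.000165 without mitochondrial genes, against 0.14, and was not called in either. The single members followed were those with an unadjusted limma p under 0.05 with all libraries as deposited, 47 results in all. Under 19 alternatives 860 of their 893 values kept the direction and side of the threshold, 17 lost and 15 gained a call. The 1 reversed value was that of Slc3a2. The alternatives reuse the same libraries, so results chosen this way were likely to keep their direction. Most of the 47 were not called to begin with, so for them the same side meant staying uncalled. All 17 losses were among Slc38a3 and Slc43a3 in TPTN against DOX and Slc43a3 in TPTN against Control. Those calls held in 11, 16 and 13 of 19 alternatives. The causes were not tested.

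Same-numbered libraries had correlations of deviations from their group means of -0.26 to 0.02. Among different-numbered libraries the highest were 0.40 for TPTN replicate 1 with Control replicate 3, 0.29 for TPTN replicate 2 with Control replicate 1 and 0.23 for TPTN replicate 3 with Control replicate 2. Deviations within a group depend on each other, so these values cannot decide whether samples were paired. With the replicate block, 2 members were called in TPTN against DOX (Slc38a3 and Slc43a3), 0 in DOX against Control and 1 in TPTN against Control, while calls over all genes were 37 higher and 122 lower, 141 higher and 29 lower, and 24 higher and 38 lower in these comparisons.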
